A study of Homo sapiens with 18 samples.

Results

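The genes PRKCB, STEAP1, NR0B1 and PPP1R1A were examined as direct targets of the fusion protein EWSR1-FLI1 in A673, an established Ewing sarcoma cell line. The members were all chromatin immunoprecipitation sequencing (ChIP-seq) peaks within 100 kb of the 4 gene bodies, and 26 of the 45354 peaks in the 5 lists used met this rule. The genes were chosen by name, not by a cutoff on a measured value, but with earlier results of these data known. The lists came from untreated A673 cells and covered EWSR1-FLI1 (1 sample, 2145 peaks), RING1B (2 replicates, 2573 and 3945 peaks) and histone H2A monoubiquitination, H2Aub1 (2 replicates, 26423 and 10268 peaks). The other 13 of the 18 samples, among them the RING1B knockdown and its control, were not analysed here. The lists hold no read counts, so depth is unknown and a gene without a peak can only be said to have none listed. Per the labels, the antibodies were D139-3 of MBL for RING1B, D27C4 of Cell Signalling for H2Aub1 and ab15289 of Abcam for EWSR1-FLI1. All samples are of 1 cell line, and whether replicates are separate cultures is not stated.

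EWSR1-FLI1 joins the N-terminal part of EWSR1 to the ETS DNA-binding domain of FLI1, which recognises the core GGAA, singly or in microsatellite repeats. RING1B, the catalytic subunit of Polycomb repressive complex 1, attaches ubiquitin to H2A, a mark best known at silenced developmental genes. PRKCB encodes protein kinase C beta, a serine/threonine kinase. STEAP1 encodes a membrane protein of the metalloreductase family. NR0B1 encodes the orphan nuclear receptor DAX1, a transcriptional corepressor, and a GGAA microsatellite upstream of it is a textbook EWSR1-FLI1 response element. PPP1R1A encodes inhibitor-1, a regulatory inhibitor of protein phosphatase 1.

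PRKCB and PPP1R1A had EWSR1-FLI1 peaks within 100 kb, and RING1B of both replicates overlapped 3 of these 5 peaks, some at each gene. STEAP1 and NR0B1 had no EWSR1-FLI1 peak within 100 kb and a single RING1B peak each, in different replicates. The 5 EWSR1-FLI1 peaks comprised 3 at PRKCB and 2 at PPP1R1A. RING1B gave 5 peaks in each replicate: 2 and 3 at PRKCB, 2 and 1 at PPP1R1A, 1 and 0 at STEAP1, and 0 and 1 at NR0B1, for replicates 1 and 2. Thus 3 of the 4 genes had a RING1B peak in a given replicate, 2 had one in both, and all 4 had one in at least 1 replicate. Consecutive windows along the genome as long as that of PRKCB (584633 bp) held RING1B in 28.9% (replicate 1), 40.0% (replicate 2) and 23.7% (both). For windows as long as that of PPP1R1A (211907 bp) these shares were 13.1%, 19.6% and 9.71%, and windows as long as those of STEAP1 and NR0B1 held both in 9.55% and 9.43%. Within 10 kb of the gene bodies, PRKCB was the sole gene of the 4 with an EWSR1-FLI1 or a RING1B peak.

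**Figure D1:**
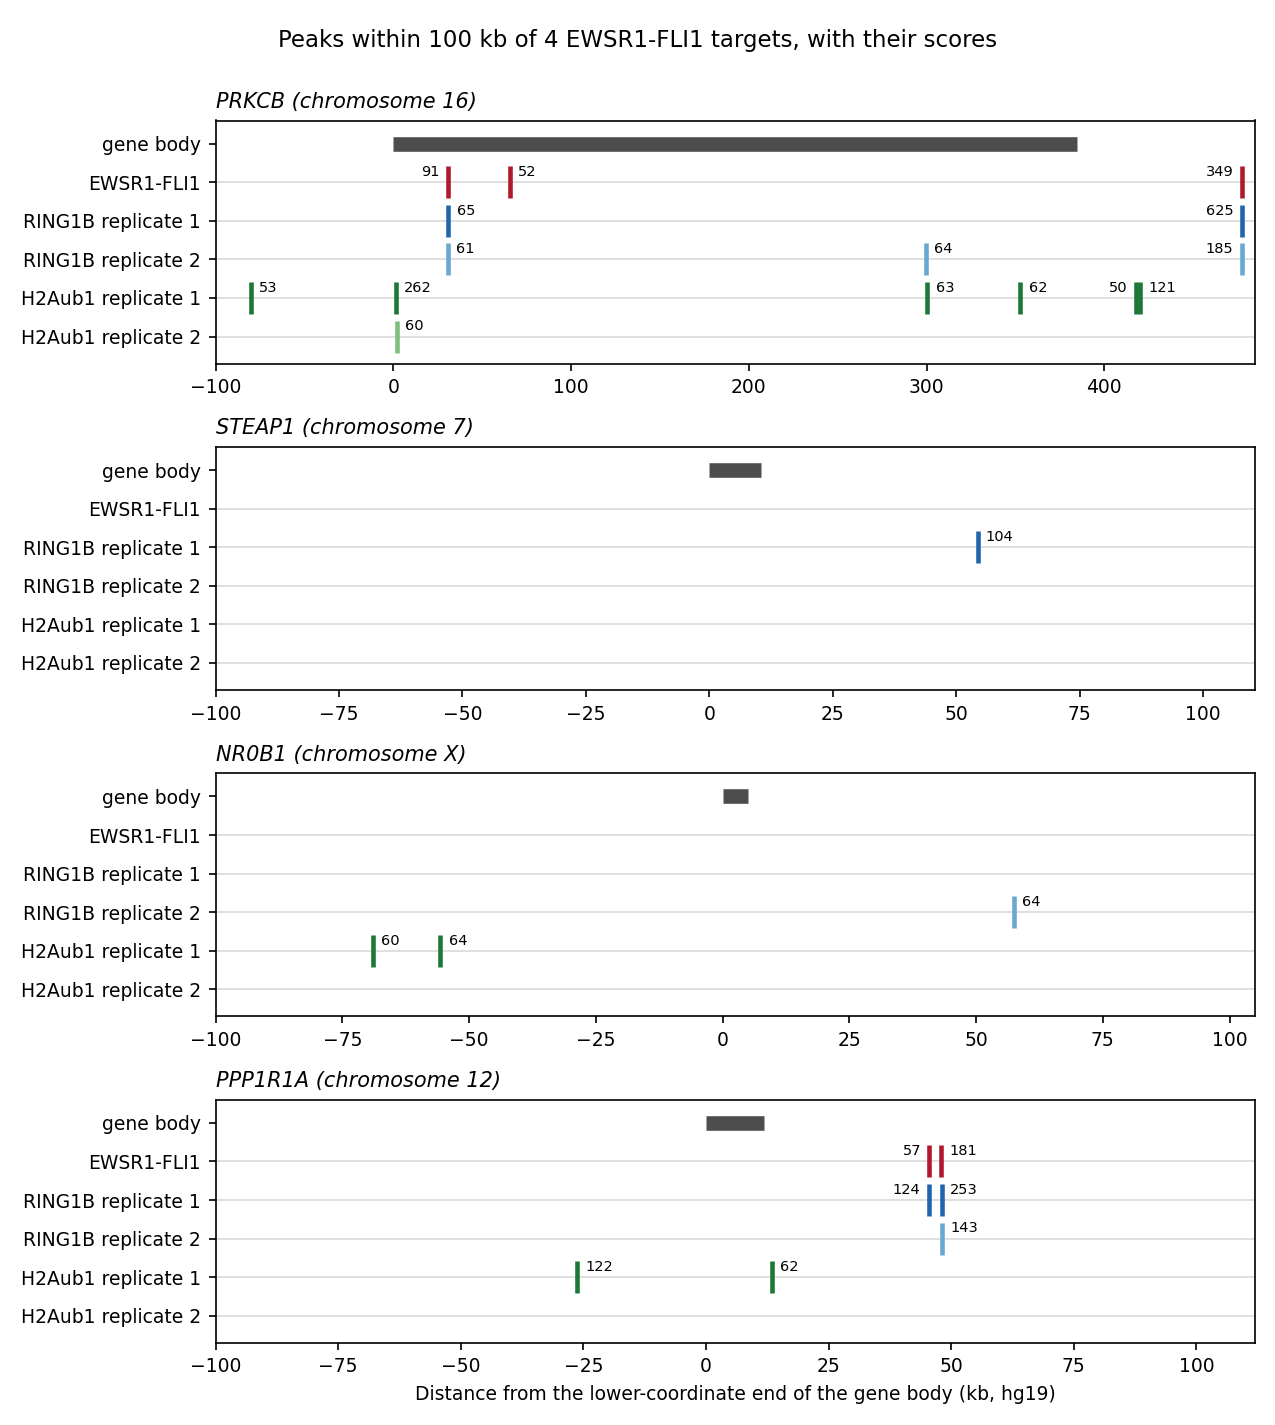
Positions of the 26 peaks around the 4 genes, as distance in kb from the lower-coordinate end of the gene body (grey bar), with 1 row per list and each tick labelled by the authors' score, rounded. RING1B ticks line up with most but not all EWSR1-FLI1 ticks at PRKCB and PPP1R1A, while the rows of STEAP1 and NR0B1 hold no EWSR1-FLI1 tick.

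Of the 5 EWSR1-FLI1 peaks, 4 overlapped RING1B of replicate 1, 3 overlapped replicate 2 and 3 overlapped both. Over the whole EWSR1-FLI1 list the corresponding shares were 54.5%, 54.7% and 41.6%. No difference from the list was tested, since there are 5 peaks near genes picked with results of these data known. In the other direction, 4 of the 5 RING1B peaks of replicate 1 and 3 of the 5 of replicate 2 overlapped EWSR1-FLI1, beside 45.4% and 29.7% of their lists. Between replicates, 3 of 5 RING1B peaks were found again from either side, where the lists gave 62.6% for replicate 1 and 40.9% for replicate 2. None of the 5 EWSR1-FLI1 peaks overlapped H2Aub1, which met 14.6% (replicate 1) and 7.37% (replicate 2) of all EWSR1-FLI1 peaks.

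PRKCB occupies chromosome 16 from 23847300 to 24231932 (hg19) and, at 384.6 kb, was the longest of the genes. The highest-scoring EWSR1-FLI1 site in its window lay outside the gene, 92.1 kb beyond the 3′ end (chr16:24323985-24325141). EWSR1-FLI1 scored 349.25 there and ranked 237 of 2145. In RefSeq gene order the next protein-coding gene on that side is CACNG3, a calcium channel subunit gene. No hg19 annotation was used, so whether the site lies within CACNG3 was not determined, and exons or introns were not assigned. RING1B was listed over the same bases in both replicates. It scored 624.64 in replicate 1, rank 115 of 2573, and 184.60 in replicate 2, rank 561 of 3945. The RING1B peak centres lay 22.5 bp and 18.5 bp from the EWSR1-FLI1 centre and 4.0 bp from each other.

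The replicates placed this site beyond the PRKCB 3′ end together but gave it unequal scores. The score of replicate 1 was 3.38 times that of replicate 2, whereas the median ratio over 1543 RING1B peaks paired singly between replicates was 1.05, with 90% of pairs between 0.404 and 2.58. A ratio this high or higher occurred in 28 pairs (1.81%). Scores were computed by the authors separately for each list and on a scale that is not given, so the ratio describes the lists and not the amount of RING1B.

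Inside PRKCB, EWSR1-FLI1 had a peak centred 30.8 kb after the gene start (chr16:23877784-23878511) with a score of 90.87, close to the list median of 93.90. RING1B covered all 728 bp of it in both replicates, with scores of 65.30 and 61.18, ranks 1883 of 2573 and 2893 of 3945. The centres differed by 12.0 bp and 15.5 bp. Unlike the site beyond the gene, this one had nearly equal RING1B scores, with a ratio of 1.07. Both RING1B peaks fell in the third score quartile of their lists, in which 49.0% of replicate 1 peaks and 24.8% of replicate 2 peaks were found again in the other replicate.

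A second EWSR1-FLI1 peak in the body of PRKCB, centred 65.5 kb after the start (chr16:23912350-23913199), had the lowest score of the 5, 51.71, rank 2070 of 2145. No RING1B peak touched it, and the nearest ones lay at the neighbouring site, 33.8 kb (replicate 1) and 33.7 kb (replicate 2) away. In the lowest quartile of EWSR1-FLI1 scores, 27.6% of peaks overlapped RING1B replicate 1 and 31.5% overlapped replicate 2. A further RING1B peak, listed in replicate 2 alone with a score of 63.95, lay 300 kb into the gene (chr16:24146634-24147476) and the nearest EWSR1-FLI1 peak was 177 kb away.

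PPP1R1A occupies chromosome 12 from 54970537 to 54982443 (hg19). Its EWSR1-FLI1 peaks formed a close pair 33.1 kb and 35.4 kb beyond the higher-coordinate end, on the side where LACRT is the next protein-coding gene in RefSeq order. The gap between them was 1162 bp, and 148 of the 2145 EWSR1-FLI1 peaks (6.90%) had another within 5 kb. The farther peak (chr12:55017853-55019236) was the stronger, with a score of 181.37 and rank 515. RING1B overlapped it in both replicates, with scores of 253.36 (rank 403) and 142.66 (rank 809), and the centres lay 91.0 bp and 104.0 bp from that of EWSR1-FLI1. All 3 scores fell in the top quartile of their lists.

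The nearer PPP1R1A peak (chr12:55015527-55016690) scored 57.40, rank 1863, and its RING1B overlap rested on replicate 1. RING1B there scored 124.09, rank 873 of 2573, higher within its list than EWSR1-FLI1 was within its own. The RING1B peak covered 79.8% of the EWSR1-FLI1 peak. In replicate 2 the nearest RING1B peak began 1325 bp beyond it and belonged to the stronger site. In that score quartile of RING1B replicate 1, the second highest, 68.1% of peaks were found again in replicate 2.

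**Figure D2:**
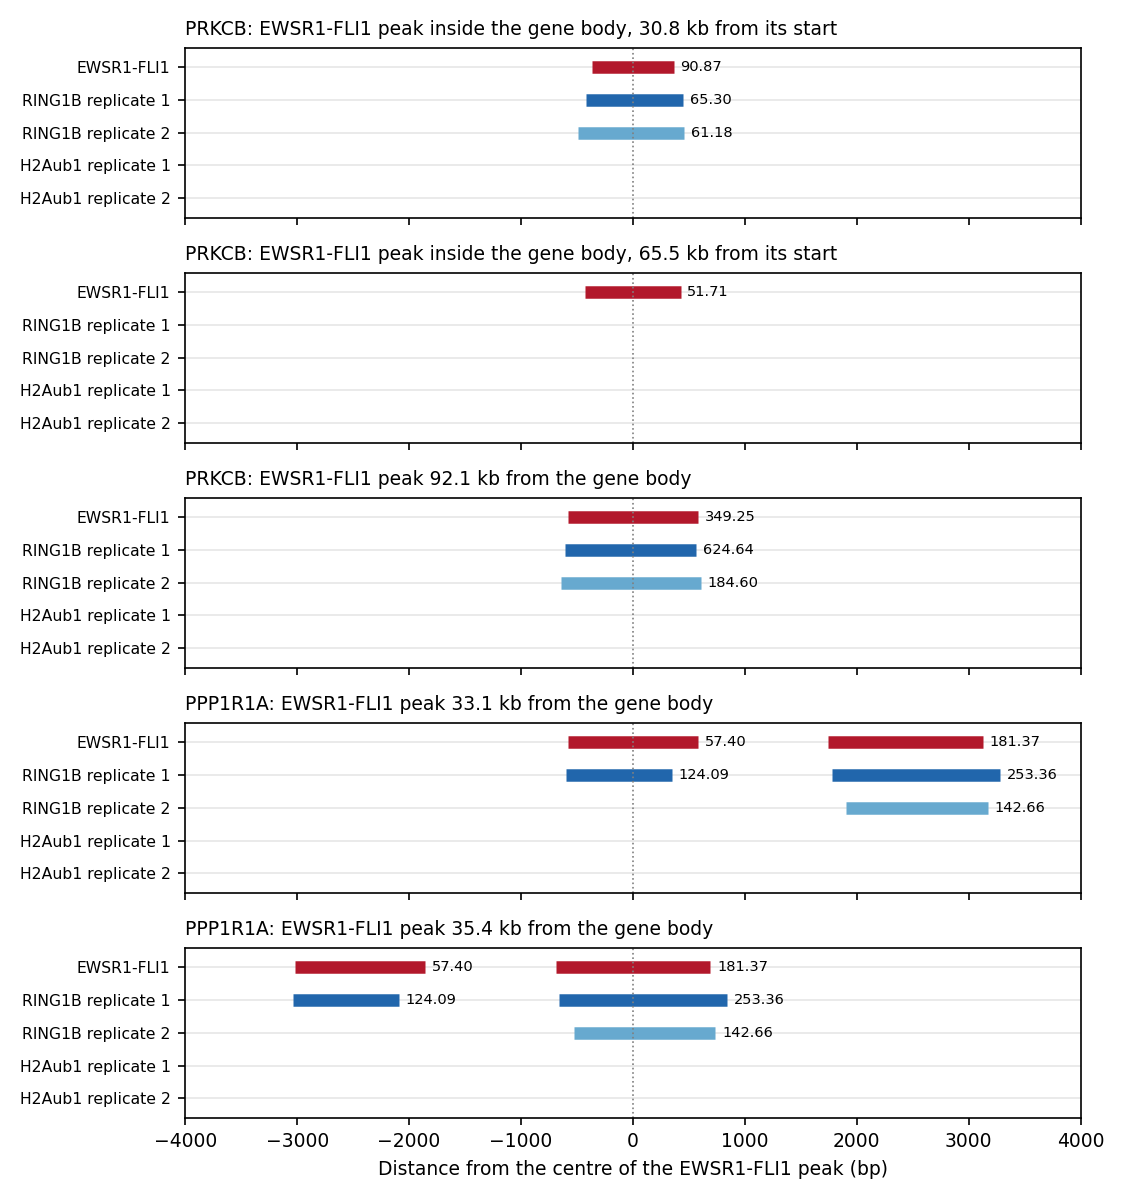
The 5 EWSR1-FLI1 peaks near the genes, each panel centred on 1 peak (x axis in bp from its centre), with bars for the peaks of each list and the authors' scores beside them. RING1B bars of both replicates lie over 3 of the EWSR1-FLI1 peaks, a bar of replicate 1 alone lies over the PPP1R1A peak scored 57.40, and the PRKCB peak scored 51.71 has none.

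Across the 5 sites the number of replicates with RING1B was ordered as the EWSR1-FLI1 scores were. The 3 peaks scored 349.25, 181.37 and 90.87 had RING1B in both replicates, the peak scored 57.40 had it in replicate 1, and the peak scored 51.71 had it in neither. This is a description of 5 sites, without a test. With the 50% of each list that scored highest, 2 of the EWSR1-FLI1 peaks were left, 1 in the window of each gene and neither in a gene body. Both kept RING1B in both replicates. Over the whole list, overlap with RING1B likewise fell from 87.9% and 86.2% in the top EWSR1-FLI1 quartile to 39.9% and 41.0% in the third quartile, for replicates 1 and 2.

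STEAP1 occupies chromosome 7 from 89783689 to 89794141 (hg19), and its window held 1 peak in all. This was a RING1B peak of replicate 1, 43.5 kb beyond the 3′ end toward STEAP2 (chr7:89837662-89838354), with a score of 103.66 and rank 1077 of 2573. At 693 bp it was narrower than the median RING1B peak of that list (1029 bp). It was not found in replicate 2, whose nearest RING1B peak lay 385 kb from it, and it overlapped neither EWSR1-FLI1 nor H2Aub1. The nearest EWSR1-FLI1 peak to STEAP1 was 404 kb from the gene body, the nearest H2Aub1 peaks 432 kb (replicate 1) and 1100 kb (replicate 2).

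NR0B1 occupies chromosome X from 30322539 to 30327495 (hg19), on the minus strand. RING1B was listed in replicate 2 alone, 52.1 kb upstream of the gene (chrX:30379582-30380483), with a score of 63.76 and rank 2715 of 3945. Replicate 1 had its nearest RING1B peak 106 kb from that site. The nearest place with RING1B in both replicates was 159 kb from the gene body, outside the 100 kb rule, with scores of 62.81 and 97.23. The nearest EWSR1-FLI1 peak was 462 kb from NR0B1, so the list held no fusion peak at the upstream microsatellite for which the gene is known. A missing entry does not show that the fusion was not bound there.

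**Figure D3:**
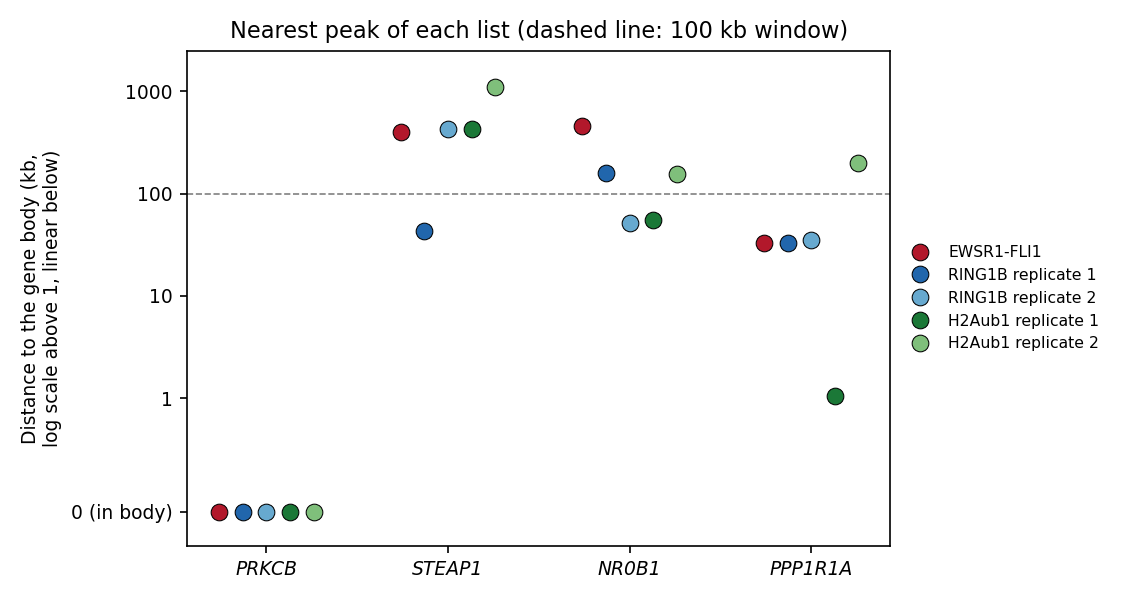
Distance in kb from each gene body to the nearest peak of each list (log scale above 1 kb, linear below), with the 100 kb limit dashed. All 5 lists reach 0 at PRKCB, and the EWSR1-FLI1 points of STEAP1 and NR0B1 lie at 404 kb and 462 kb, above the limit.

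How often a stretch of this size holds a peak sets the scale for these counts. Of 14416 consecutive windows as long as that of STEAP1 (210453 bp), 11.9% held an EWSR1-FLI1 peak and 12.9% and 19.5% held a RING1B peak of replicates 1 and 2. On chromosome X, windows as long as that of NR0B1 held EWSR1-FLI1 in 5.55%, RING1B in 4.76% and 6.61%, and both RING1B replicates in 2.64% of 757. At least 2 EWSR1-FLI1 peaks, as at PPP1R1A, were present in 2.33% of 14318 windows of its length. At least 3, as at PRKCB, were present in 3.51% of 5179 windows of 584633 bp. A window with no EWSR1-FLI1 peak, as at STEAP1 and NR0B1, was thus the usual case along the genome. Over the 4 windows together (1.21 Mb) EWSR1-FLI1 and each RING1B list had 4.13 peaks per Mb, beside 0.706, 0.847 and 1.30 over the genome. These windows surround genes, and the consecutive windows were not matched for gene content. The genes were also picked as EWSR1-FLI1 targets with results of these data known, so these shares and densities cannot show enrichment, and none was tested.

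The 3 RING1B peaks without EWSR1-FLI1, at STEAP1, NR0B1 and inside PRKCB, were each listed in 1 replicate. Without replicate 2 their number was 1, at STEAP1, and without replicate 1 it was 2. A single listing was common: over the whole lists 62.6% of replicate 1 peaks and 40.9% of replicate 2 peaks were found again. In the score quartile of the STEAP1 peak 68.1% were found again, and in that of the other 2 peaks 24.8% were. The share among RING1B peaks without EWSR1-FLI1 was not computed. All 6 RING1B peaks that recurred between replicates, 3 in each list at the same 3 sites, lay at an EWSR1-FLI1 peak. Over the whole lists 55.2% of the recurring peaks of replicate 1 and 55.3% of those of replicate 2 did, and no difference from these shares was tested. The STEAP1 peak had a score in the second quartile of its list, where 53.2% of peaks overlapped EWSR1-FLI1, and the other 2 were in the third quartile of replicate 2, where 18.8% did.

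**Figure D4:**
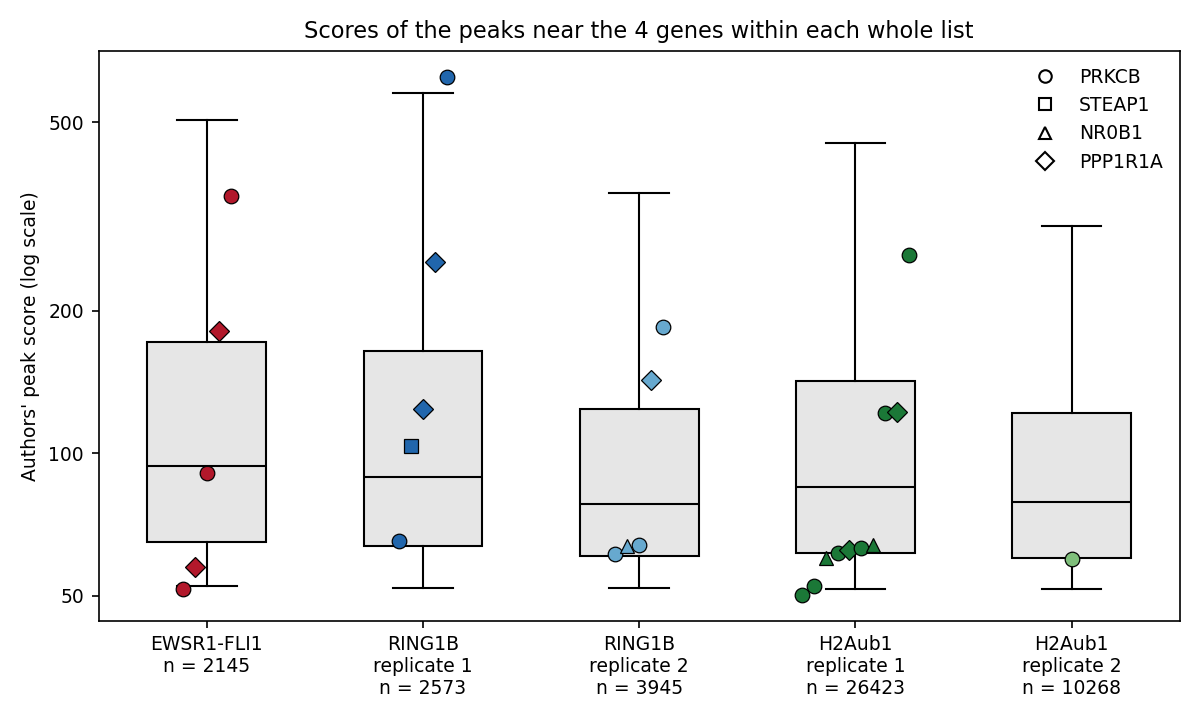
Authors' peak scores (log scale) in the 5 lists, with boxes for the quartiles and median of each whole list, whiskers from the 5th to the 95th percentile, and symbols for the peaks near the 4 genes. The site scored 624.64, 92.0 kb beyond the PRKCB gene body, lies above the upper whisker of RING1B replicate 1. RING1B symbols above 100 are 4 of 5 in replicate 1 but 2 of 5 in replicate 2.

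H2Aub1 was listed in both replicates at 1 place in the 4 windows, the start of PRKCB. In replicate 1 an H2Aub1 peak of 2522 bp began 102 bases after the start of PRKCB (chr16:23847402-23849923) with a score of 262.20, rank 2877 of 26423. Replicate 2 listed 700 bp within the same stretch, with a score of 59.74, rank 7753 of 10268. The EWSR1-FLI1 and RING1B peaks nearest to this mark lay 27.7 to 28.3 kb farther into the gene, and no RING1B peak was listed at the PRKCB start in either replicate.

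The other 9 H2Aub1 peaks of the windows came from replicate 1 alone. They comprised 5 more at PRKCB, 2 at PPP1R1A, 2 at NR0B1 and none at STEAP1. The 10 scores of replicate 1 ranged from 50.25 to 262.20 with a median of 62.70, and 3 of them exceeded the list median of 84.67. Those 3 included the mark at the PRKCB start. Another, scored 121.41, lay 34.4 kb beyond the PRKCB 3′ end on the side of CACNG3, and its place relative to CACNG3 was not determined. The last, scored 122.30, lay 25.6 kb from PPP1R1A on the side of PDE1B. A weaker peak (62.34) lay 1041 bp beyond the higher-coordinate end of PPP1R1A. In the whole lists 26.6% of replicate 1 peaks and 77.3% of replicate 2 peaks were found again, and here 1 of 10 and 1 of 1 were. The windows held 8.25 and 0.825 H2Aub1 peaks per Mb in replicates 1 and 2, beside 8.70 and 3.38 over the genome. Without replicate 1 the count of H2Aub1 peaks fell from 11 to 1.

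RING1B and its mark met once near these genes, at the RING1B peak inside PRKCB of replicate 2, which shared 67 bp with an H2Aub1 peak of replicate 1 scored 63.07. The mark was thus listed at 1 of the 5 RING1B peaks of replicate 2 and at none of the 5 of replicate 1, beside 21.3% and 24.1% over the whole lists. H2Aub1 replicate 2 met none of these RING1B peaks, and it met 14.8% and 12.6% of RING1B replicates 1 and 2 as a whole. The 3 sites shared by EWSR1-FLI1 and both RING1B replicates lay 27.9 kb, 55.6 kb and 33.4 kb from the nearest H2Aub1 peak of replicate 1.

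No peak of any list covered the start of a gene with a RefSeq promoter entry, and the sequences before these starts are shown because the fusion recognises GGAA. The 250 bases before the start, 5′ to 3′ on the gene's strand, came from RefSeq (GRCh38.p14), which had entries for PRKCB, STEAP1 and NR0B1 but not for PPP1R1A. Their positions are chr16:23835733-23835982 (plus strand), chr7:90154219-90154468 (plus) and chrX:30309391-30309640 (minus) in GRCh38, a build other than that of the peaks. Capitals mark GGAA and its reverse complement TTCC.
PRKCB: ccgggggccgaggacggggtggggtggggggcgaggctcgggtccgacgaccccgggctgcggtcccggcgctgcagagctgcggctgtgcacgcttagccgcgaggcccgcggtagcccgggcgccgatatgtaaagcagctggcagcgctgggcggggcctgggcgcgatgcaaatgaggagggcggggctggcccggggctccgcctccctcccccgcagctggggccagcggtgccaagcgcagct
STEAP1: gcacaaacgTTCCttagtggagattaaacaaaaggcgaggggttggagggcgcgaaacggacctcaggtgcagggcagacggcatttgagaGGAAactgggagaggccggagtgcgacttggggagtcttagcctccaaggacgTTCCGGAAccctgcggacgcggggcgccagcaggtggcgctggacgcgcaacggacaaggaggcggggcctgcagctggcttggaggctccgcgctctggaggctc
NR0B1: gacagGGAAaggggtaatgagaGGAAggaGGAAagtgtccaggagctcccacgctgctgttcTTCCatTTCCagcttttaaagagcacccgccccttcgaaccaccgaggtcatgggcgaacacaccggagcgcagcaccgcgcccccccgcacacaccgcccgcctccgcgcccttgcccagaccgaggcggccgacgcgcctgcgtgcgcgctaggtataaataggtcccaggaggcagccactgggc

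The core was absent from the PRKCB sequence, which at 77.2% G and C was the richest in these bases. At least 1 GGAA or TTCC was present in 92.7% of 35116 promoters of this length, so its absence was shared by 7.26%. The STEAP1 sequence held 2 GGAA and 2 TTCC, with 1 of each adjoining, and 34.3% of promoters held 4 or more in all. The NR0B1 sequence held 3 GGAA and 2 TTCC, and 18.6% of promoters held 5 or more. None of the 3 had 2 copies of the core directly in a row on a strand, as 3.06% of promoters did. A match describes the letters and is not a binding site, and an absence concerns this window alone. The sequences under the PRKCB and PPP1R1A peaks were not used here.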

How the data were processed

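ChIP-seq peak lists of 5 samples of A673 cells were used, as the authors deposited them, with 1 list per sample. Per the submitters' processing notes, Bowtie was used with hg19, and mm9 is also named for the RING1B and H2Aub1 samples. Peak names begin with MACS, per the file headers and peak names. Its version, the filters and the use of input are not given in the sources used here. Each peak has a score set by the authors, on a scale that is not given, and the lowest score of each list was 50.00 to 50.04. Scores were used to rank peaks within a list.

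The 4 genes, their hg19 bodies, the 100 kb rule and the questions asked were chosen with earlier results of these data known. All 4 genes and every EWSR1-FLI1 and RING1B peak in their windows are described. Peaks shared a site when they overlapped by at least 1 bp. Score quartiles, with the first holding the highest scores, and ranks refer to whole lists. Distances run between nearest edges unless centres are named. Consecutive windows used hg19 chromosome lengths from GenomeInfoDb 1.38.1. RefSeq tables of GRCh38.p14 gave the strand of 3 genes, the order of neighbouring genes and promoter sequences, and no coordinates were converted. Lists were read in Python 3.11.15, and overlap counting was tested on simulated intervals. Depth is unknown, so no interval based on reads is given.

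No tests were run, since there are 4 genes, 1 EWSR1-FLI1 sample and no read counts. Alternatives changed the window to 10, 50 or 200 kb, the overlap to 50% of the shorter peak or to centres within 500 bp, and the lists to the 50% with the highest scores, and left out each replicate of RING1B and H2Aub1. An hg19 annotation was not used here, so other targets were not counted.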

Additional observations from a re-analysis of the deposited data

How the results depend on the processing

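Of 48 recomputed counts, 35 were within 1.5 times the reported one. The 3 peaks of EWSR1-FLI1 with RING1B in both replicates were also 3 under either stricter overlap rule. None of the 5 peaks met H2Aub1 under any alternative tried, but the settings could not change this. Narrower windows, fewer peaks or fewer lists cannot raise a count of 0, and 200 kb added no EWSR1-FLI1 peak. The closest H2Aub1 peak lay 27.9 kb from an EWSR1-FLI1 peak, out of reach of every overlap rule. These unchanged counts are among the 35. Within 10 kb of the gene bodies, 2 EWSR1-FLI1 peaks were left, 1 with RING1B in both replicates and 1 with it in at least 1, 1 gene had RING1B in both, 1 RING1B peak lacked EWSR1-FLI1 and 5 H2Aub1 peaks were present. With the 50% of each list that scored highest, 2 EWSR1-FLI1 peaks were left, 2 of them with RING1B in at least 1 replicate, and 3 H2Aub1 peaks. Within 200 kb, 5 RING1B peaks lacked EWSR1-FLI1, 21 H2Aub1 peaks were present and 3 genes had RING1B in both replicates. Leaving out a replicate gave 1 to 2 RING1B peaks without EWSR1-FLI1 and 1 to 10 H2Aub1 peaks. By construction, fewer bases, peaks or lists enter these counts than the reported ones, except that more bases enter within 200 kb. With a RING1B replicate left out, a count for both replicates becomes a count for the remaining replicate, which is a looser rule. EWSR1-FLI1 peaks counted this way rose from 3 to 4 without replicate 2. Genes counted this way rose from 2 to 3 without either replicate. No paired analysis was possible because no result comes from a test. The lists hold no counts, so a weak site in 1 replicate and an unlisted one cannot be compared by depth.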

Other observations

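Beyond the 100 kb rule, a range of 500 kb around STEAP1 and NR0B1 was looked at after their values were seen. STEAP1 had 4 EWSR1-FLI1 peaks there, from 404 kb to 456 kb beyond its 3′ end in a stretch of 53.3 kb. The strongest (chr7:90223604-90224853) scored 1232.94 and ranked 16 of 2145, above every EWSR1-FLI1 peak within 100 kb of the 4 genes, and RING1B scored 471.71 and 599.81 over it. The other sites scored 166.88, 246.93 and 299.70. RING1B of replicate 1 was listed at all 4 of these sites and RING1B of replicate 2 at 3 of them, missing at the one scored 166.88. That site fell in the second EWSR1-FLI1 score quartile, where 62.5% of peaks overlapped RING1B replicate 1 and 60.1% replicate 2. The others fell in the top quartile, where 87.9% and 86.2% did. No difference from these shares was tested. One of the 4 sites, 435 kb away, also overlapped an H2Aub1 peak of replicate 1 scored 81.95, as 14.6% of all EWSR1-FLI1 peaks overlapped that list. These sites were not assigned to a gene.

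NR0B1 had 1 EWSR1-FLI1 peak in the same range, 462 kb away on its 3′ side, with a score of 56.04 and rank 1909. RING1B overlapped it in replicate 2 alone, with a score of 67.87. In the lowest EWSR1-FLI1 quartile, where this peak fell, 27.6% of peaks overlapped RING1B replicate 1 and 31.5% replicate 2.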
